A study of Mus musculus with 8 samples.

Results

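Axon guidance ligands, their receptors and the leucine-rich repeat genes Islr and Islr2 were followed in cortical RNA from 8 mice, labelled either Mef2c heterozygous or wild type. The genes were taken by name: semaphorins of classes 3 to 7, plexins, neuropilins, Slit and Robo, netrins, netrin-G, Unc5 and Dcc, ephrins and Eph receptors, Islr and Islr2. Of 22000 rows in the count table, 72 matched these names, and the 70 with 10 or more reads in 4 or more libraries were kept. Just inside this limit lay Epha2, with 10 or more reads in 5 libraries, and just outside it Efna4, which reached 10 reads in 1 library, and Epha1, which did so in none. Mef2c codes for a transcription factor of neurons and microglia, and the comparison asked which transcripts differ with its genotype. The tissue was whole cortex, and either genotype was represented by 2 males and 2 females, with 1 library of polyadenylated RNA from each animal. The labels give no age, strain or treatment, and they do not say which part of Mef2c was altered.

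Growing axons are steered by ligands that attract or repel the growth cone. Semaphorins act through plexins and neuropilins, Slit proteins through Robo receptors, netrins through Dcc and Unc5 receptors, and ephrins through Eph receptors, and ephrins can also signal back into the cell that carries them. In the adult cortex many of these genes stay on, and their products are known from synapses, from the layering of inputs on dendrites and from blood vessels. A count per whole tissue cannot tell fewer cells of a type from less RNA per cell, which holds for every difference below.

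Total counts lay between 16092773 and 17841377 reads per library, and the 70 genes together held between 57447 and 64084 of them. Levels are given as CPM, counts scaled to a common library total. Markers of cortical excitatory neurons summed to between 8861 and 9781 CPM in each of the 8 libraries, while the 5 of the choroid plexus summed to at most 6.61 CPM. Mef2c itself was at 1233, 1336, 1391 and 1255 CPM in the libraries labelled heterozygous and at 1038, 939, 999 and 1003 CPM in those labelled wild type. It was thus higher in the libraries labelled heterozygous, so that every direction below refers to the labels alone. The summed markers of layer 2 to 4 neurons did not overlap between the genotypes, with 904 to 943 CPM in sum in the libraries labelled heterozygous and 1018 to 1071 CPM in the others. All 7 of these markers were tested, none was at 0 throughout, and they went both ways: 5 had log2 fold changes below 0, of which Rasgrf2 fell (-0.33), and 2 above 0, up to 0.39 for Mdga1, which was not called. Single markers did not overlap for 5 of the 7, 4 lower and 1 higher, beside 4.55% of all genes tested. Marker sums of microglia (428 to 485 against 387 to 415 CPM, over 11 of 12 listed genes) and of hippocampus (269 to 304 against 240 to 252 CPM, over 8 genes) lay higher in the libraries labelled heterozygous, with no marker at 0 throughout. Of the microglial genes 10 of 11 had log2 fold changes above 0 and 3 rose, and 6 were higher without overlap. Of the hippocampal genes 6 lay above 0, of which Wfs1 and Fibcd1 rose, and 2 below 0, down to -0.70 for Npnt, which was not called. Among the hippocampal genes 2 were higher and 1 lower without overlap. Over all genes tested, 0.267% were called between the genotypes. All 8 striatal markers tested had log2 fold changes above 0 (median 0.21), none of them called with edgeR and 1 at an unadjusted p under 0.05. The part of these shifts in the results below was not tested.

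Levels between genes were compared per length, as CPM per kilobase of annotated exons and as a mean over the 8 libraries. Sema7a, the gene of a semaphorin anchored to the membrane by a lipid, had the highest level of all 70 (64.1). It was followed by Ephb6 (39.7), an Eph receptor without kinase activity, Sema6b (36.6), a transmembrane semaphorin, and the netrin receptor gene Unc5a (35.9). Epha4 (28.5), a receptor for ephrins of both classes, and the ephrin gene Efnb3 (22.0) came next. Islr2 stood at 14.3. At the low end were Dcc (0.28), Sema3b (0.20) and Epha2 (0.13). The receptors for which class 3 semaphorins are known were unequal in level: the neuropilin genes Nrp1 and Nrp2 had 1.75 and 1.88, while Plxna1, a plexin gene, had 15.3. Sema7a also varied least between libraries, with a coefficient of variation of 2.06% over all 8 mice, and Sema3b varied most (32.5%). Sema3b had 11 to 26 reads per library and Sema7a 3365 to 3746, so counting noise weighs unequally on these values. The part of read depth in this ranking was not tested.

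**Figure D1:**
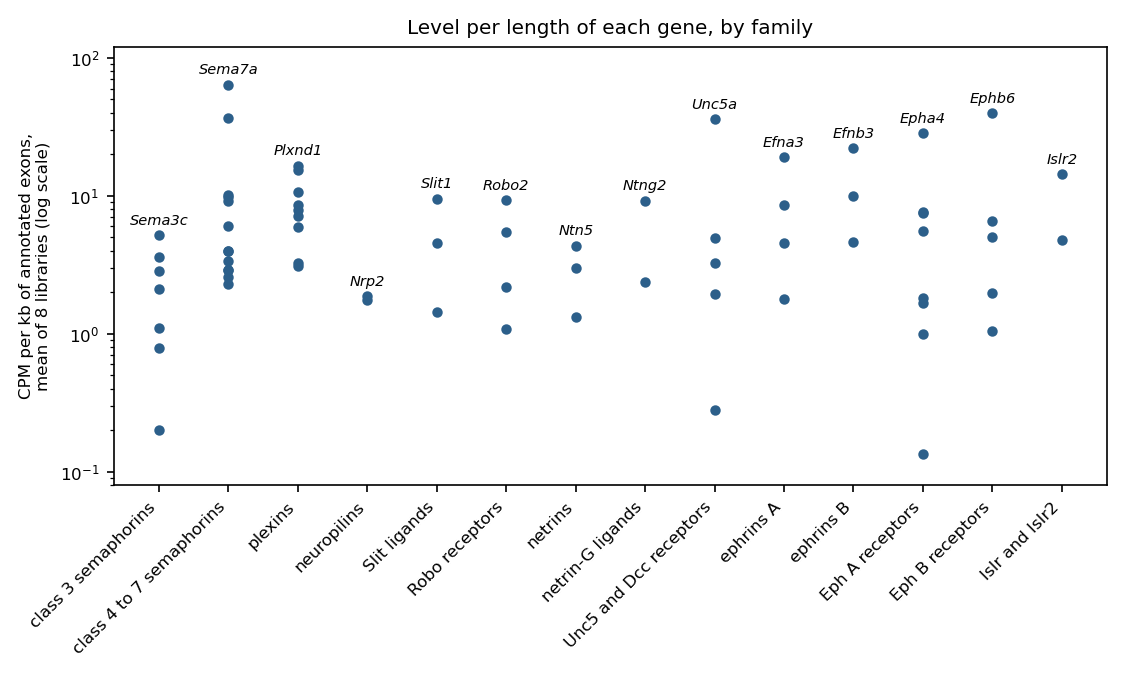
Level per length of each of the 70 genes (CPM per kilobase of annotated exons, mean of 8 libraries, log axis), by family, with the highest gene of each family named. Levels run from 0.13 for Epha2 to 64.1 for Sema7a.

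In the comparison of the genotypes, Islr2 and the netrin gene Ntn5 rose in the libraries labelled heterozygous, and none of the 70 genes fell past the threshold. With the run of animal numbers, which is balanced over genotype and sex, as a further term 5 genes were called: Islr2, Ntn5, Efnb3 and Slit1 higher and Plxnc1 lower. All 70 were tested among 13879 genes with edgeR's quasi-likelihood test, and those with a Benjamini-Hochberg adjusted p below 0.05 count as called. In the fit with sex and genotype alone, 0.267% of all genes tested were called, 0.13% higher and 0.137% lower. The share of all genes called in the fit with the run is not given here, so its 5 calls cannot be set against 0.267%. At an unadjusted p under 0.05 there were 17 of the 70 genes (24.3%), 10 higher and 7 lower, beside 7.24% of all genes (3.54% higher and 3.7% lower). The 2 groups of libraries did not overlap for 10 of the 70 (14.3%), 6 higher and 4 lower, beside 4.55% of all genes (2.16% higher and 2.38% lower). The median log2 fold change of the 70 genes was 0.0056, near that of all genes (-0.0011), while the median of its size without regard to sign was 0.12 against 0.070. The median level of the 70 genes was 35.7 CPM and that of all genes tested 26.7 CPM, and the part of this in the shares was not tested. By role, 8 of 35 ligand genes and 7 of 33 receptor genes had an unadjusted p under 0.05, each with both directions. The 15 of the 17 genes that were not called are given below as values.

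**Figure D2:**
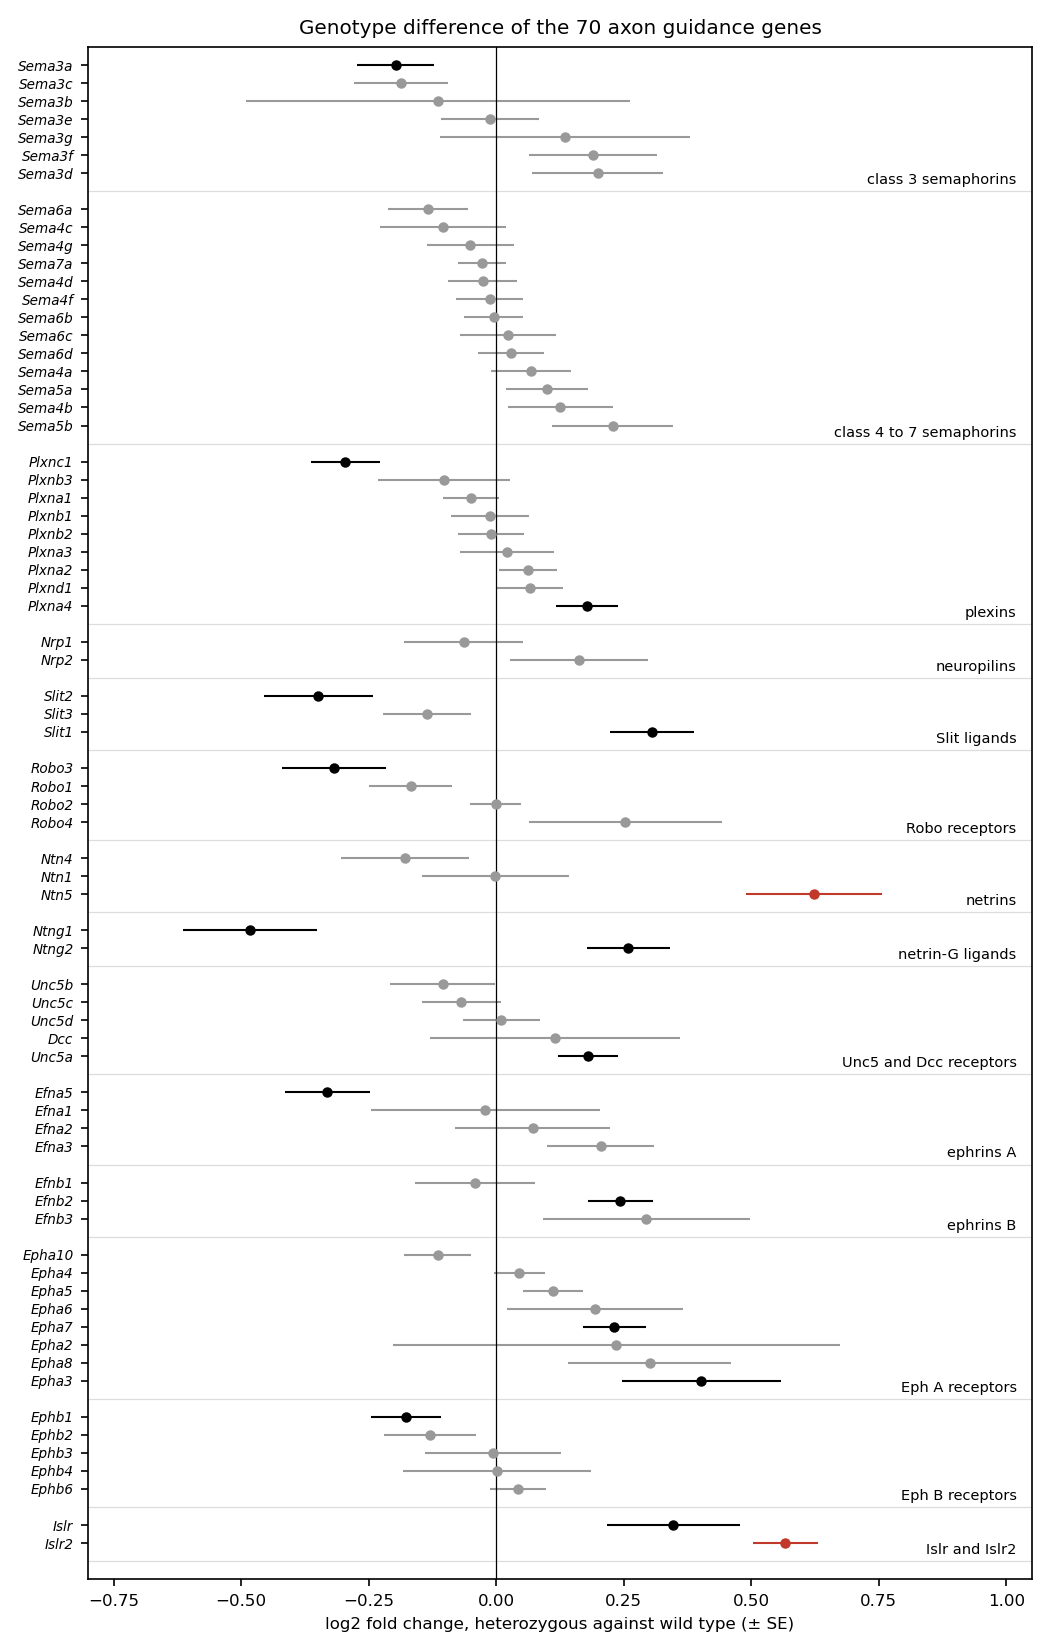
Log2 fold change of each of the 70 genes, heterozygous against wild type as labelled, with its standard error, by family. Islr2 and Ntn5 (red) were called, black marks the other 15 genes with an unadjusted p under 0.05, and grey the rest.

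Islr2 codes for a membrane protein with leucine-rich repeats and an immunoglobulin domain. It is known in mouse embryos as a partner of neurotrophin and Ret receptors in sensory and motor neurons and for its need in the formation of forebrain axon tracts. Its levels were 94.5, 105, 106 and 98.7 CPM in heterozygous replicates 1 to 4 and 62.3, 70.1, 74.9 and 65.9 CPM in wild type replicates 1 to 4. Every library labelled heterozygous lay above every one labelled wild type, and the gap between the groups was wider than the range within either. The means were 101 ± 5.34 and 68.3 ± 5.44 CPM (SD, n = 4 each), a ratio of 1.48. The fitted log2 fold change came to 0.57 ± 0.06 (SE, edgeR quasi-likelihood adjusted p 0.000145). The two-sided exact permutation p over the 4 against 4 libraries was 0.0286, the smallest that this design allows. Groups that do not overlap always give this value, as they would for the 4.55% of all genes without overlap. Islr2 was also chosen with earlier results of these data known, so this p adds no separate evidence. Islr2 was called with any 1 library left out, with log2 fold changes between 0.53 and 0.62. It was 0.47 in males alone, where the call was lost (adjusted p 0.176, with 9.34e-12 to 0.176 over all alternatives), and 0.67 in females alone, where it was called. The difference between the sexes was itself tested as an interaction and did not pass (adjusted p 1.0, unadjusted 0.128, in edgeR's quasi-likelihood test).

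Islr2 lies on the minus strand of chromosome 9 from 58196297 to 58204319 in GRCm38, beside its relative Islr. The annotation of Islr (58156268 to 58204306) includes 1 transcript that begins close to the start of Islr2 and reaches down to Islr, so the 2 genes share 181 exonic bases, 3.06% of the exons of Islr2 and 6.74% of those of Islr. The promoter window at that shared start is shown because both annotated transcripts begin in it. It is 300 bases of RefSeq's annotation of GRCm38.p6, chr9:58204270-58204569, minus strand, read 5′ to 3′, and capitals mark the 50 bases from the RefSeq start on.
Islr2 promoter: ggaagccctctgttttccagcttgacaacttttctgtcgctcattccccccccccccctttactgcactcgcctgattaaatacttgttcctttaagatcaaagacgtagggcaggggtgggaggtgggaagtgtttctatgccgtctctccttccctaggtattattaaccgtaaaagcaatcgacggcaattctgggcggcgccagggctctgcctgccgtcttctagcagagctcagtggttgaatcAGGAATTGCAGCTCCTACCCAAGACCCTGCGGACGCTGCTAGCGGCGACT
Islr codes for a related protein that is known from fibroblasts and mesenchymal cells. Its levels were 11.4, 17.2, 15.6 and 12.9 CPM in the libraries labelled heterozygous and 11.3, 10.6, 9.68 and 13.3 CPM in the others. The groups overlapped, since wild type replicate 4 lay above heterozygous replicates 1 and 4. Its log2 fold change of 0.35 ± 0.13 (SE) did not pass (adjusted p 0.464). Reads from the shared exon could be counted for either gene or for neither. The neighbours Stra6 and Pml, 1 on either side, had log2 fold changes of -0.032 and 0.0022. Sema7a, which lies a little further along the same chromosome, had -0.028.

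Ntn5 codes for a small secreted protein of the netrin family. It was at 12.3, 11.6, 11.4 and 11.5 CPM in the libraries labelled heterozygous and at 9.19, 7.31, 7.10 and 6.79 CPM in those labelled wild type. The libraries labelled heterozygous were close together and all lay above the others, of which wild type replicate 1 came nearest. The means were 11.7 ± 0.377 and 7.60 ± 1.08 CPM (SD, n = 4 each), a ratio of 1.54, with a log2 fold change of 0.62 ± 0.13 (SE). From edgeR the adjusted p was 0.0439. This call was lost in 7 of the 8 fits that left out 1 library and held without wild type replicate 1, with adjusted p between 0.0255 and 0.171. It was also lost with RIN, the score of RNA integrity, as a term (0.0650) and in either sex alone, and over 19 alternatives it held in 9, with adjusted p between 0.0121 and 0.697. The log2 fold change lay between 0.56 and 0.74 in the fits without 1 library.

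On chromosome 7, Ntn5 occupies 45684022 to 45694556 of the plus strand and runs through Sec1, a fucosyltransferase gene on the minus strand (45677686 to 45694402). The exons of both share 519 bases, 23.4% of the exons of Ntn5. Sec1 was at 4.03, 4.35, 3.85 and 3.75 CPM in the libraries labelled heterozygous and at 3.14, 2.88, 2.46 and 2.36 CPM in the others. These groups did not overlap either. Its log2 fold change of 0.56 ± 0.21 (SE) did not pass with edgeR (adjusted p 0.479, unadjusted p 0.0158). The strand setting of the counting is not given in the sources used here, so it is not known to which gene reads in this shared stretch were assigned. The neighbour Car11 had a log2 fold change of 0.084. The window at the start of Ntn5 is shown for the second called gene, as 300 bases of RefSeq's annotation of GRCm38.p6 at chr7:45683772-45684071, plus strand, 5′ to 3′, with capitals for the 50 bases from the start on.
Ntn5 promoter: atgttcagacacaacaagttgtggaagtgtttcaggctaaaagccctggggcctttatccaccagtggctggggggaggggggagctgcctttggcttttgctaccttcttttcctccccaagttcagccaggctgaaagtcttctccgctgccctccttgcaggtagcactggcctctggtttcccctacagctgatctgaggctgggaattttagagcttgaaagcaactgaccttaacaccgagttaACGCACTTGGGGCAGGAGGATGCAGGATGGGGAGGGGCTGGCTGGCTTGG
The consensus of MEF2 factors was searched as exact matches to YTAWWWWTAR, where Y is C or T, W is A or T and R is A or G. Over both strands and every window of a gene, it was absent from the windows of Islr2, Islr and Ntn5. Of the 60 genes of the 70 that had a RefSeq window, 1 held it (1.67%), the semaphorin gene Sema6d, beside 3.70% of all 27025 genes with a window. Near matches were not counted, and the Islr2 window printed above holds gtattattaa, which departs from the pattern in its first base alone.

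**Figure D3:**
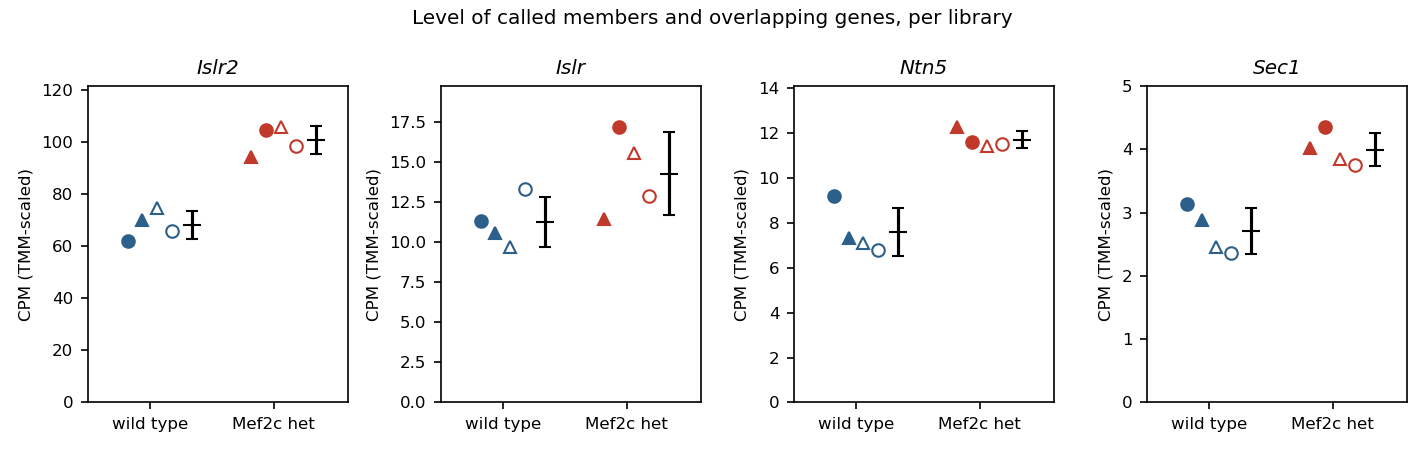
Level (CPM) of Islr2, its neighbour Islr, Ntn5 and the overlapping gene Sec1 in each of the 8 libraries, wild type in blue and heterozygous in red as labelled. Circles are females, triangles males, filled symbols the lower run of animal numbers and open symbols the higher, and bars show the mean ± SD of 4 libraries; the groups overlap for Islr alone.

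Among the other netrins, Ntn1, the ligand of Dcc and Unc5 receptors, had a log2 fold change of -0.0023, and Ntn4, a laminin-binding netrin, had -0.18. The netrin-G genes code for lipid-anchored proteins at presynaptic sites, whose partners on dendrites are Lrrc4c for Ntng1 and Lrrc4 for Ntng2. Ntng1 was at 12.3, 14.5, 21.6 and 16.5 CPM in the libraries labelled heterozygous and at 22.9, 23.3, 23.7 and 20.7 CPM in those labelled wild type. Heterozygous replicate 3 lay inside the wild type range and the other 3 below it. On the log2 scale the fold change was -0.48 ± 0.13 (SE), and the adjusted p from edgeR was 0.182. Without heterozygous replicate 3 it was -0.66 and was called (adjusted p 0.0116, with 0.0116 to 1.00 over its 19 tested alternatives). In the lower run of animal numbers it was -0.78 and in the higher -0.23. Ntng1 is known from the thalamus, and the 7 thalamus markers, none at 0 throughout, summed to 69.4 to 75.1 CPM in the libraries labelled heterozygous and 65.5 to 74.2 CPM in the others. Of these markers 5 had log2 fold changes above 0 and 2 below 0, and Ramp3 fell (-0.71 ± 0.14 (SE), edgeR adjusted p 0.0190), with groups that did not overlap. The part of these markers in the values of Ntng1 was not tested.

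Ntng2 was at 37.1, 44.7, 37.8 and 40.6 CPM in the libraries labelled heterozygous and at 30.6, 31.4, 35.8 and 35.9 CPM in the others. Its groups did not overlap, by a narrow margin, and its log2 fold change of 0.26 ± 0.08 (SE) did not pass (adjusted p 0.279). Per length, Ntng2 was 6.22, 6.36, 3.62 and 5.08 times as abundant as Ntng1 in the libraries labelled heterozygous and 2.77, 2.78, 3.12 and 3.58 times in those labelled wild type. All 4 ratios of the libraries labelled heterozygous lay above the others, that of replicate 3 only just. This ratio was formed after the values of both genes were seen and was not tested. The dendritic partners Lrrc4c and Lrrc4 were in the list of further pathway genes and were not called.

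None of the netrin-1 receptors was called. Unc5a, whose product mediates repulsion, was at 144, 161, 168 and 163 CPM in the libraries labelled heterozygous and 141, 135, 151 and 133 CPM in those labelled wild type. The groups overlapped through heterozygous replicate 1, and the log2 fold change of 0.18 ± 0.06 (SE) did not pass (adjusted p 0.326). Unc5b, Unc5c and Unc5d had -0.11, -0.069 and 0.010. Dcc, the attractive receptor, stood at 3.83 ± 0.560 against 3.56 ± 1.52 CPM (SD, n = 4 each), and its spread was wider than the difference.

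The Slit genes, which code for secreted repellents, had fold changes of both signs. Slit1 was at 55.9, 59.1, 67.2 and 67.3 CPM in the libraries labelled heterozygous and at 43.4, 48.9, 54.5 and 55.1 CPM in those labelled wild type. The groups were separated by less than 1 CPM, and in both of them the higher run of animal numbers had the higher values. Its log2 fold change was 0.31 ± 0.08 (SE) with edgeR, at an adjusted p of 0.158. With the run of animal numbers as a further term Slit1 was called (adjusted p 0.0205, with 0.0205 to 1.00 over its 19 tested alternatives), as it was without heterozygous replicate 1. The fold change of Slit2 had the opposite sign, with levels at 38.2, 29.8, 27.1 and 33.5 CPM in the libraries labelled heterozygous and 39.0, 44.2, 34.9 and 45.7 CPM in the others. Its groups overlapped, and its log2 fold change of -0.35 ± 0.11 (SE) did not pass (adjusted p 0.304, and 0.0282 without heterozygous replicate 1, with 0.0282 to 1.00 over its alternatives). Slit3 had -0.14.

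Per length, Slit1 was 6.30, 8.52, 10.6 and 8.63 times as abundant as Slit2 in the libraries labelled heterozygous and 4.78, 4.75, 6.70 and 5.18 times in those labelled wild type. The ratio of heterozygous replicate 1 lay below that of wild type replicate 3, so these ratios overlapped, and they were formed after the values were seen. Of the Robo receptors, Robo2, the most abundant per length, stood at 157 ± 4.64 against 157 ± 6.01 CPM (SD, n = 4 each). Robo3, which in the mouse spinal cord is needed for axons to cross the midline, was at 38.3, 37.1, 30.2 and 27.0 CPM in the libraries labelled heterozygous and 41.9, 45.3, 43.8 and 34.5 CPM in the others. Its log2 fold change of -0.32 ± 0.10 (SE) did not pass (adjusted p 0.346), and in each genotype its lowest value was that of the female of the higher number run. Robo1 had -0.17.

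Among the plexins, Plxnc1, the receptor of Sema7a, came closest to a call. It was at 41.9, 46.2, 46.7 and 43.8 CPM in the libraries labelled heterozygous and at 56.7, 50.7, 56.4 and 55.6 CPM in those labelled wild type. The groups did not overlap, and all 4 libraries labelled heterozygous were within 5 CPM of each other. The fitted log2 fold change came to -0.30 ± 0.07 (SE, edgeR quasi-likelihood adjusted p 0.0677). It was called in 4 of its 19 tested alternatives: with the run of animal numbers as a further term (adjusted p 0.0385), with no filter (0.0263), with the DESeq2 Wald test (0.0233) and without the sex term (0.0490). Over all 19 the adjusted p lay between 0.0233 and 1.00. Within the lower and the higher run of animal numbers the log2 fold change was -0.28 and -0.31. Its ligand gene Sema7a was at 209 ± 5.70 and 214 ± 0.718 CPM (SD, n = 4 each), with a log2 fold change of -0.028 that did not pass.

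Plxna4, a plexin gene whose product serves class 3 and class 6 semaphorins, stood at 118 ± 6.97 against 104 ± 6.78 CPM (SD, n = 4 each), with a log2 fold change of 0.18 that did not pass (adjusted p 0.378). The other 7 plexins lay between -0.10 for Plxnb3 and 0.065 for Plxnd1. Of the 7 class 3 semaphorins, which are secreted, 1 had an unadjusted p under 0.05. This was Sema3a, a repellent that acts through Nrp1, at 35.9, 35.2, 37.2 and 38.1 CPM in the libraries labelled heterozygous and 46.6, 42.0, 40.1 and 39.1 CPM in the others. Its groups did not overlap, though wild type replicate 4 was close to heterozygous replicate 4, and the log2 fold change of -0.20 ± 0.08 (SE) did not pass (adjusted p 0.479). Sema3c, the most abundant of its class per length, had -0.19 and did not pass. Of the 13 semaphorins of classes 4 to 7, none had an unadjusted p under 0.05 in edgeR's quasi-likelihood test, and their log2 fold changes lay between -0.13 for Sema6a and 0.23 for Sema5b. Nrp1 and Nrp2 had -0.063 and 0.16.

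The ephrins and Eph receptors held several of the genes nearest to a call. Efna5, a lipid-anchored ephrin known for the mapping of axons onto their targets, was at 34.4, 28.7, 32.2 and 27.7 CPM in the libraries labelled heterozygous and at 39.6, 34.8, 42.1 and 37.9 CPM in those labelled wild type. Its groups did not overlap, with heterozygous replicate 1 just under wild type replicate 2. On the log2 scale the fold change was -0.33 ± 0.08 (SE), and the adjusted p from edgeR was 0.108. With no filter on low counts it was called (adjusted p 0.0435), and over its 19 alternatives the adjusted p lay between 0.0435 and 1.00. Of the other ephrins A, Efna3 had 0.20, Efna2 0.072 and Efna1 -0.022.

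Epha7, the gene of a receptor of ephrins A, was at 86.4, 82.0, 77.6 and 80.7 CPM in the libraries labelled heterozygous and at 69.4, 74.9, 67.3 and 66.9 CPM in the others. These groups did not overlap, and the log2 fold change of 0.23 ± 0.06 (SE) did not pass (adjusted p 0.139). Of the 8 Eph A receptors, 7 had a log2 fold change above 0, beside 6872 of all 13879 genes tested, with a family median of 0.21. None was called, and 2 had an unadjusted p under 0.05 in edgeR's quasi-likelihood test. The other of these was Epha3, at 9.76 ± 1.43 against 7.39 ± 1.39 CPM (SD, n = 4 each). The abundant Epha4 stood at 233 ± 15.4 against 226 ± 9.76 CPM (SD, n = 4 each). The largest log2 fold changes of the family were in genes of low level, Epha3 (0.40), Epha8 (0.30) and Epha2 (0.24). Epha4 had 0.045, Epha5 0.11 and Epha10 -0.12.

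Efnb2, a transmembrane ephrin of neurons and arteries, was at 70.9, 73.9, 77.4 and 75.3 CPM in the libraries labelled heterozygous and 58.8, 68.4, 60.5 and 63.8 CPM in those labelled wild type. Its groups did not overlap, and the log2 fold change of 0.24 ± 0.06 (SE) did not pass (adjusted p 0.130). Ephb1, a receptor of ephrins B, lay lower in every library labelled heterozygous (38.3 to 46.7 CPM) than in any other (47.0 to 50.9 CPM), with a log2 fold change of -0.18 that did not pass (adjusted p 0.498). Ephb6 and Ephb4 had 0.043 and 0.0011.

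**Figure D4:**
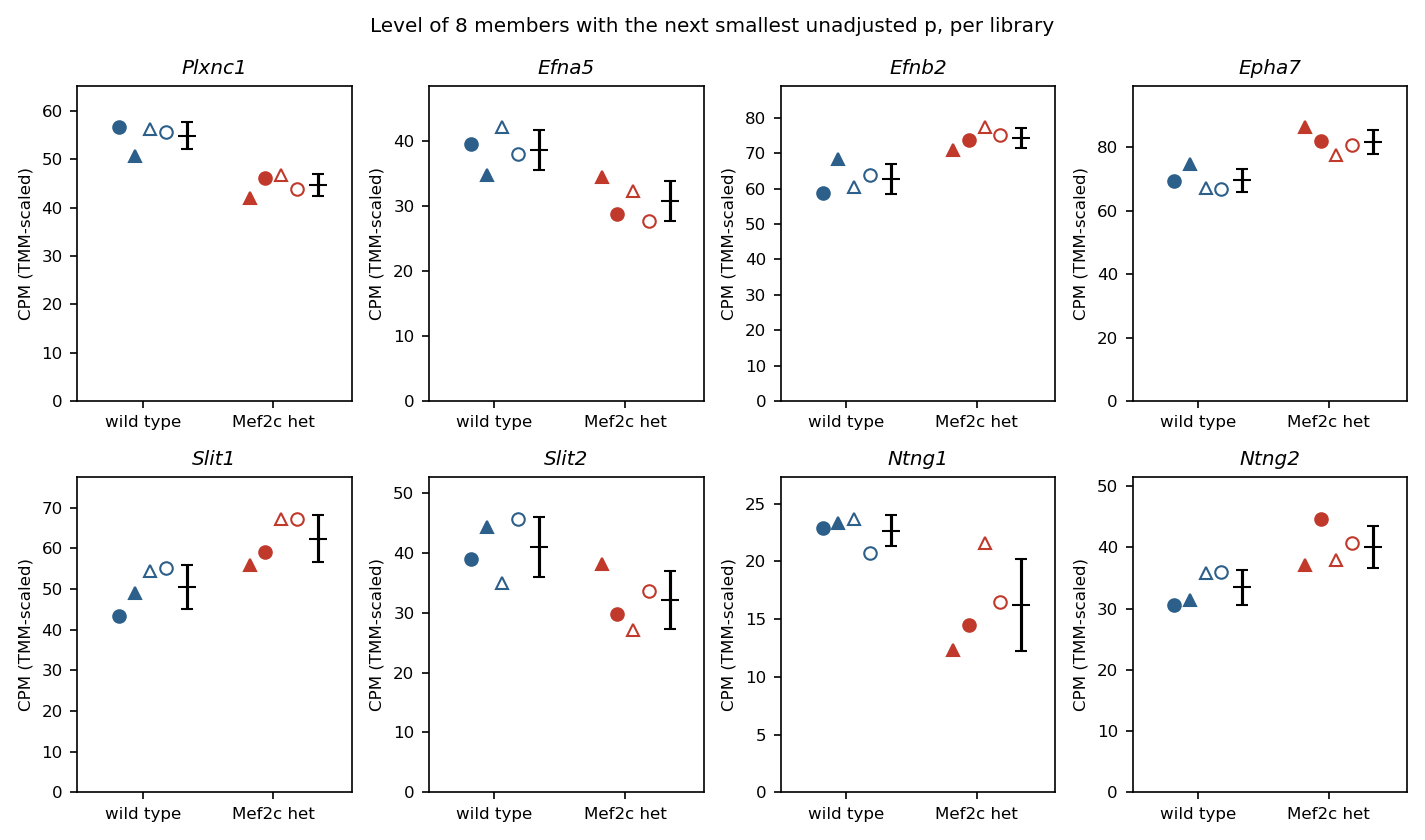
Level (CPM) in each of the 8 libraries of the 8 genes that follow Islr2 and Ntn5 by unadjusted p; symbols as in the plot of Islr2 and Ntn5. The groups do not overlap for Plxnc1, Efna5, Efnb2, Epha7, Slit1 and Ntng2 and overlap for Slit2 and Ntng1; none of the 8 was called.

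Further genes of the pathway, 75 co-receptors, partner ligands and intracellular signalling genes, were all in the table, and 73 were tested. With edgeR none passed, nor in any alternative, including DESeq2 and limma-voom. At an unadjusted p under 0.05 there were 10 (13.7%, beside 7.24% of all genes), 3 higher and 7 lower, and the median log2 fold change was -0.0029. Chn2, the gene of a GTPase-activating protein for Rac, was at 56.3, 56.3, 54.6 and 54.6 CPM in the libraries labelled heterozygous and 67.9, 61.3, 65.7 and 64.2 CPM in those labelled wild type. Its groups did not overlap, and the log2 fold change of -0.22 ± 0.06 (SE) did not pass (adjusted p 0.160). Dpysl5, of the collapsin response mediator family that relays semaphorin signals, had 0.30 (adjusted p 0.271), and the chemokine gene Cxcl12 had -0.22 (adjusted p 0.281).

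The sexes were compared in the same fit, in which 0.0288% of all genes were called (0.0144% higher and 0.0144% lower in males). With edgeR none of the 70 genes passed, and 1, Nrp2, had an unadjusted p under 0.05 (1.43%), beside 2.92% of all genes (1.43% higher and 1.49% lower in males). Nrp2, a receptor of class 3 semaphorins, had a male minus female log2 fold change of -0.37 that did not pass (adjusted p 1.00). DESeq2 and limma-voom called none either. The interaction of genotype and sex, which asks whether the genotype difference itself differs between males and females, called no gene of all tested by edgeR's quasi-likelihood test (0%). At an unadjusted p under 0.05 it held 1 of the 70 genes, Sema3e (1.43%), beside 2.64% of all genes (1.38% higher and 1.25% lower), and DESeq2 and limma-voom called none of the 70.

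The animal numbers in the sample titles form a lower and a higher run, with 1 male and 1 female of each genotype in either. The labels do not say what the runs stand for, and they were compared in a fit that also held sex and genotype. Between them Efnb3, a transmembrane ephrin, rose in the higher run and was the 1 called gene of the 70, beside 0.382% of all genes called (0.173% higher and 0.209% lower). Its levels were 55.9 and 77.0 CPM in the heterozygous animals of the lower run and 85.7 and 91.0 CPM in those of the higher run. In the wild type animals they were 56.2 and 49.5 CPM in the lower run and 72.8 and 73.4 CPM in the higher. Within each genotype both animals of the higher run lay above both of the lower run. Across the genotypes the runs overlapped, since heterozygous replicate 2 exceeded both wild type animals of the higher run. Its log2 fold change was 0.45 ± 0.07 (SE) with edgeR, at an adjusted p of 0.00152. For the genotypes Efnb3 had 0.29 ± 0.20 (SE), which did not pass (adjusted p 0.906), and it was called once the run was a term of the fit (adjusted p 0.0388, with 0.0388 to 1.00 over its alternatives).

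In all, 17 of the 70 genes (24.3%) had an unadjusted p under 0.05 between the runs, 10 higher and 7 lower in the higher run, beside 10.2% of all genes (5.11% higher and 5.07% lower). Slit1 and Robo3 were among these and also among the 17 of the genotype comparison. Ephb3, a receptor of ephrins B, had a log2 fold change of 0.35 (adjusted p 0.0580). Robo4 and Nrp1, which are known from endothelial cells, and Sema3g, a class 3 semaphorin of vessels, had log2 fold changes of -0.44, -0.27 and -0.52, none of which passed. These genes were chosen after their values were seen. Efnb2, the ephrin of neurons and arteries, had 0.023 between the runs, Plxnd1 -0.022, Unc5b 0.16 and Nrp2 0.32, and none of these passed either. Robo4 was at 7.11, 6.96, 6.58 and 5.59 CPM in the lower run and at 5.96, 4.81, 4.41 and 4.24 CPM in the higher. All 7 endothelial markers, none at 0 throughout, had log2 fold changes below 0 between the runs (median -0.43). Of these, 6 had an unadjusted p under 0.05, beside 10.2% of all genes, and 1, Pecam1, was called. The sum of these markers was 193 to 217 CPM over the libraries of the lower run and 139 to 189 CPM over those of the higher run. Other marker lists also differed between the runs: all 7 leptomeningeal markers had log2 fold changes above 0 (median 0.28), all 8 striatal ones below 0 (median -0.23), and 4 of 8 oligodendrocyte ones were higher at an unadjusted p under 0.05. None of these 3 lists held a called gene with edgeR, and 2 leptomeningeal and 2 striatal markers had an unadjusted p under 0.05. Of the 7 interneuron markers 5 had log2 fold changes above 0 and 2 below 0. In that list 1 gene was called, higher in the higher run, and 2 had an unadjusted p under 0.05. The part of the markers in the differences between the runs was not tested. Between the runs Islr2 had a log2 fold change of 0.060, which did not pass, and its genotype log2 fold change was 0.59 in the lower run and 0.54 in the higher. Ntn5 had 0.54 and 0.72.

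**Figure D5:**
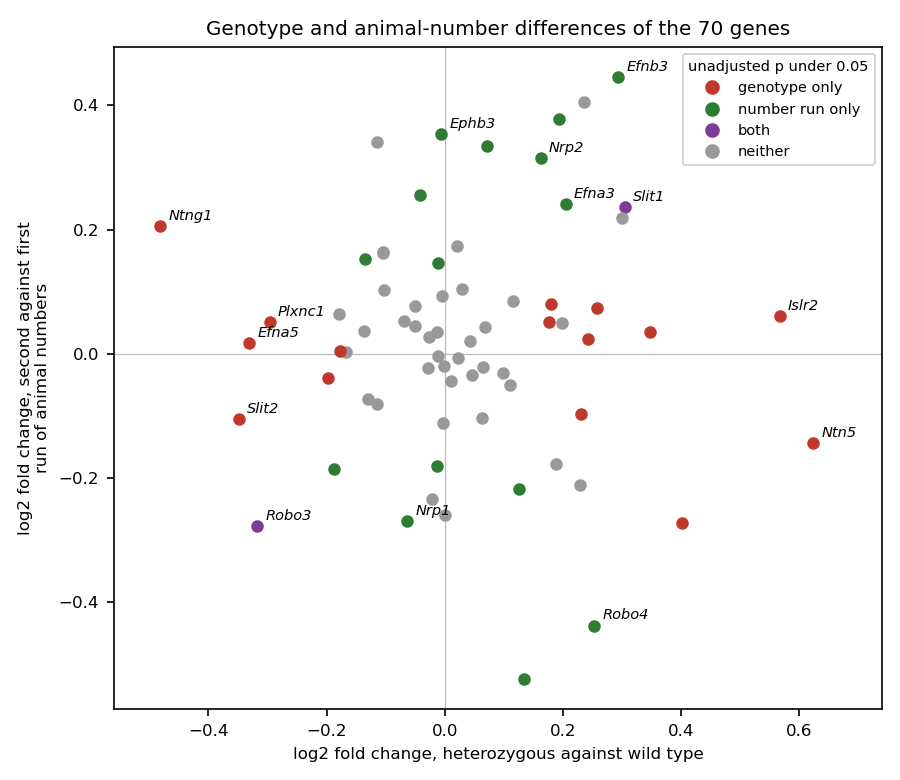
Log2 fold change of each of the 70 genes between the genotypes as labelled (horizontal) and between the runs of animal numbers (vertical, where the first is the lower run and the second the higher). Colours mark an unadjusted p under 0.05 in either, both or neither; Islr2 and Ntn5 lie far to the right, Efnb3 lies at the top, and Slit1 and Robo3 are the 2 genes marked in both.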

How the data were processed

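The deposited table held raw counts of reads for each gene symbol in 8 cortex libraries. The submitters' processing notes name STAR 2.5.2b, HTSeq and mm10. Annotation, strand setting and filters were not given in the sources used. Genes passing edgeR's filterByExpr (minimum count 10) by genotype numbered 13879 and held 99.95% of the reads. They were scaled by TMM and tested with edgeR 4.0.16 (R 4.3.3, robust quasi-likelihood fit, terms sex and genotype), with Benjamini-Hochberg adjustment over all of them. Standard errors were derived from the F statistic. Alternatives used DESeq2 1.42.0, limma 3.58.1, other scalings, filters and terms, subsets of mice and each library left out. The pipeline was tested on simulated data. Symbols were matched to GENCODE release M21 (GRCm38) for 19884 of 22000 rows, which gave coordinates and exon lengths.

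The genes and lists were chosen with earlier results of these data known. Named genes are Islr2, Islr, every called gene, the gene of smallest p and the most abundant of each family, the 10 of smallest p, and 3 pathway genes, and others, such as Robo4, were chosen after their values were seen. The libraries were separate mice as titled, and no pair within a genotype agreed within sampling noise (lowest chi-square per degree of freedom 4.12).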

Additional observations from a re-analysis of the deposited data

Results flagged for a closer look

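In 8 of 150 groups of 4 libraries, over 75 genes, 1 library stood apart from the other 3 by Dixon's test at its 95% limit, where chance gives about 1 in 20. None of the 8 concerned Islr2 or Ntn5. Plxna1, a plexin gene, was high in heterozygous replicate 4 (147 CPM, the next 134) and in wild type replicate 4 (153.8 CPM, the next 137), both females of the higher number run. Plxna2 was high in heterozygous replicate 1 (210.1 CPM, the next 182). Sema3d was high in heterozygous replicate 4 (11.59 CPM, the next 9.69) and Sema4d low in wild type replicate 1 (70.7 CPM, the next 78.3). Nrp1 was high in wild type replicate 2 (20.1 CPM, the next 16.9). Epha6 was high in heterozygous replicate 3 (12.12 CPM, the next 8.68), and Epha8 was low in heterozygous replicate 2 (6.73 CPM, the next 10).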

How the results depend on the processing

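The count of 2 called genes between the genotypes became 4 with no filter, 1 with RIN as a further term, 5 with the run of animal numbers as a further term, 0 in males alone and 1 in females alone, and lay between 1 and 3 with each library left out. It was 3 with the DESeq2 Wald test, without the sex term and at an adjusted p under 0.10, each time with Plxnc1 as a lower call. Lower calls were also Plxnc1 and Efna5 with no filter, Plxnc1 with the run, Slit2 without heterozygous replicate 1 and Ntng1 without heterozygous replicate 3. The share of all genes called, or at an unadjusted p under 0.05, is not given here for the alternative settings. A change in these counts therefore cannot be set against a change over all genes. Islr2 was called in all of these settings but males alone (0.47, adjusted p 0.176), with 0.53 to 0.62 over the fits without 1 library. The count of 17 genes at an unadjusted p under 0.05, whose alternatives were chosen after seeing the data, was 9 in males alone and 15 to 22 without 1 library. The median log2 fold change was 0.047 in the first (lower) and -0.027 in the second (higher) run of animal numbers and lay between -0.0062 and 0.039 without 1 library. Between the runs, 2 genes were called with no filter and at an adjusted p under 0.10, and 1 to 2 without 1 library. For these settings, too, the share of all genes called is not given here. The sign of values near 0 turned for Robo2 (0.00022 with DESeq2 size factors, 0.0017 with upper-quartile scaling, 0.00062 with at least 1 CPM in 4 libraries, 0.00025 with the DESeq2 Wald test, 0.010 in females alone, 0.022 in the first run, up to 0.016 without 1 library, the lowest being -0.013), Nrp2 (-0.038 in males alone), Plxnd1 (-0.024 in females alone, -0.090 in the second run) and Ephb6 (-0.036 in females alone). The causes were not tested. No label pairs single animals between the genotypes, and no paired analysis was run. Each sex within each run holds 1 animal of either genotype, so a fit with these as pairs would have been possible. The fit with sex and run as terms is the 1 that called 5 genes. With 4 mice per genotype, and 2 within a sex, small differences of low genes such as Epha2, Sema3b and Dcc may have been missed. What size of difference could be detected was not tested.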

Other observations

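Of the 70 genes, 5 share exonic bases with another gene of the count table, so that their counts may hold reads of a partner or lack shared ones. Apart from Islr, Islr2 and Ntn5 these were Ephb4, which shares 33 bases with Zan, and Unc5a, which shares 34 bases with Hk3, both on the opposite strand and under 1% of the exons of the guidance gene (0.711% and 0.816%). Larger shares were with annotated genes absent from the count table. Ntng2 shares 558 bases (14.0% of its exons) with 6530402F18Rik on the same strand. Efna3 (14.1%) and Plxna1 (10.7%) share bases with genes on the opposite strand. The part of reads from these genes in the counts was not tested. Around Ntn5, Mamstr, the gene of a MEF2 coactivator, was at 2.03 ± 0.696 CPM in the libraries labelled heterozygous and 2.06 ± 0.424 CPM in those labelled wild type (SD, n = 4 each). The clock gene Dbp had a log2 fold change of 0.069 between the genotypes and 0.36 between the runs of animal numbers, the latter at an adjusted p of 0.0601 with edgeR.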
